A study of Gallus gallus with 6 samples.

Results

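Claudins, keratins, desmosomal genes and other genes of epithelial junctions were followed in the uterovaginal junction of breeder hens, the oviduct segment between uterus and vagina that holds the sperm storage tubules. Members were taken by their upper-case symbol in the deposited table. The rule asked for symbols of claudins, keratins, zonula occludens scaffolds, plakophilins, desmogleins and desmocollins, and for a fixed set of single genes (OCLN, DSP, JUP, CDH1, EPCAM, CGN, F11R, MARVELD2 and MARVELD3). Rows of these families without such a symbol are no members and are described at the end. The rule found 36 of 20285 rows, made up of 10 claudins, 13 keratins, 6 desmosomal genes and 7 further genes of tight and adherens junctions. The rule found no row under the symbols CGN, F11R and MARVELD3, which were therefore not analysed here. It found none for KRT8 or PKP3 either, so the keratin and desmosomal members lack these genes. RNA-seq was done on 3 libraries of hens at a thermoneutral 23 °C and on 3 of hens held at 36 °C for 6 h, and each library pooled the RNA of 4 hens, so 24 hens are represented and a replicate is a pool. The labels give no strain, age or laying state, and p-values therefore rest on variation among pools, since single hens were not measured.

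Epithelial cells are held to each other by junctions stacked along their sides. At the top, tight junctions seal the space between cells with claudins and occludin, which are tied to the cell skeleton by zonula occludens proteins, while below them E-cadherin forms adherens junctions. Desmosomes join the keratin filaments of neighbouring cells through desmosomal cadherins, plakoglobin, plakophilins and desmoplakin, and keratins assemble as pairs of a type I and a type II chain. In the oviduct the lining epithelium and the epithelium of the sperm storage tubules carry these junctions.

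Library totals ran from 23438814 to 29502991 counts. Of the 36 members, 31 had enough counts to be tested, a filter that asks for enough counts in at least 3 libraries. The other 5, CLDN2, CLDN8, CLDN16, CLDN20 and KRT75, had at most 6 counts in any library. A count of 0 allows up to 3 counts, or 0.108 to 0.130 CPM depending on the library, and such limits cover counting error only. CPM are counts scaled here to library size and composition and serve to compare libraries, and FPKM, the authors' value corrected for gene length and library depth, serves to compare genes. For some members FPKM is higher than count, listed gene length and library total give, so comparisons between genes are approximate. In all lists of values the libraries stand in the order of replicates 1, 2 and 3. In these bulk samples fewer cells of a type and less RNA per cell cannot be told apart.

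The share of junction and keratin genes that passed the test for heat was near that of all genes. Of the 31 tested members 5, or 16.1%, had an adjusted p under 0.05 in edgeR's quasi-likelihood test, with adjustment over all 15655 genes, against 19.8% of all genes. TJP1, which encodes the scaffold ZO-1, and the plakophilin PKP1 rose, and CLDN23, KRT6A and the scaffold TJP3 fell. The share of genes called was 10.2% in the higher direction and 9.52% in the lower direction over all genes. The median log2 change of the members was 0.18, against −0.01 for all genes, and single changes ran from −1.43 to 1.09. In 12 of the 31 members the heat stress libraries did not overlap the thermoneutral libraries, which is 38.7% of members against 42.6% of all genes tested. Of these 8 were higher and 4 lower, and over all genes 21.5% were higher and 21% lower. An unadjusted p under 0.05 was found in 13 members and in 36.6% of all genes. With upper-quartile scaling the calls over all genes were 1265 higher and 1789 lower, against 1602 and 1490.

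**Figure D1:**
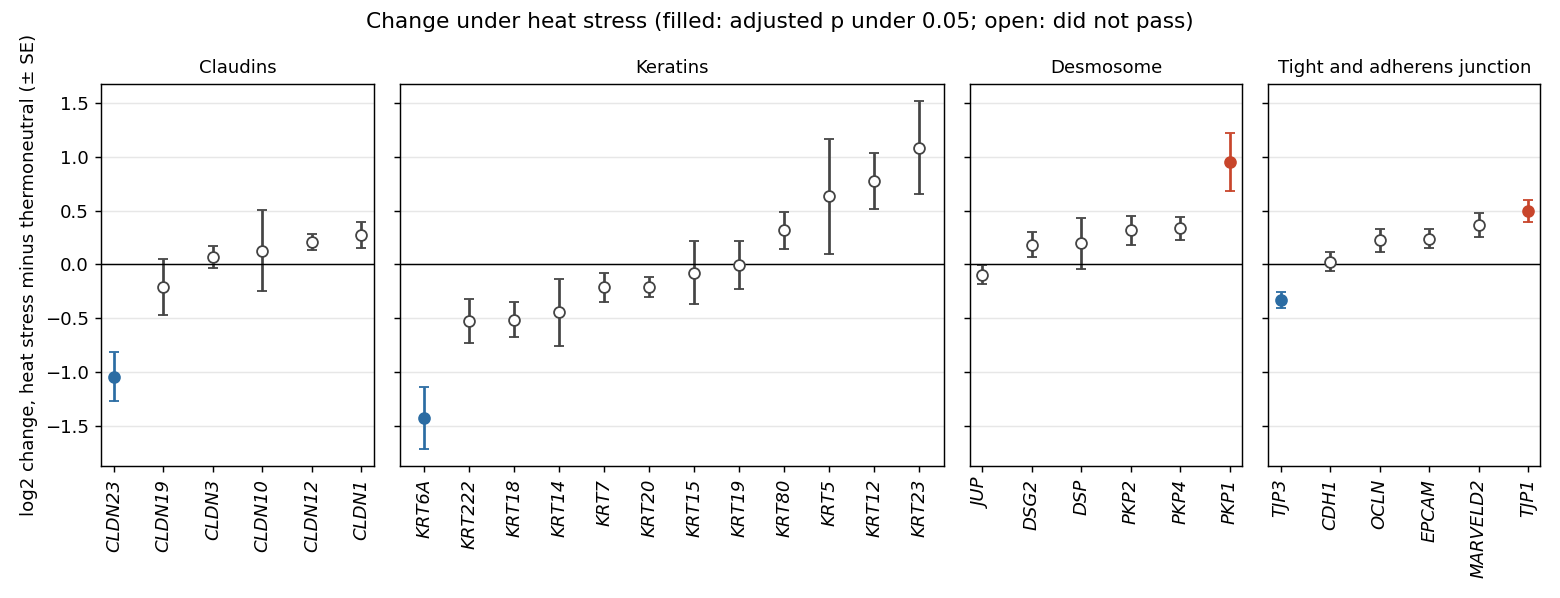
Log2 change (heat stress minus thermoneutral, ± SE, y axis) of the tested members described here, by family, with filled points for genes past an adjusted p of 0.05. Most points lie within a log2 change of 0.50 of no change, and the filled points are CLDN23, KRT6A and TJP3 below the line and TJP1 and PKP1 above it.

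Which libraries were included decided how many members passed. When thermoneutral replicate 1, 2 or 3 was dropped, 4, 0 and 0 members passed, and when heat stress replicate 1, 2 or 3 was dropped, 9, 2 and 0. Among all genes 11.1%, 2.84%, 7.87%, 23.6%, 9.37% and 2.00% passed in the same edgeR fits. In the 3 fits that called no member 9, 9 and 12 members had an unadjusted p under 0.05. On all 6 libraries DESeq2 called 10 of the 31 members and 26.1% of all genes, and limma-voom called 4 members and 19.2% of all genes.

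Claudins form the strands of the tight junction, and the set of claudins in a tissue sets which ions and molecules pass between its cells. By length-corrected level, 3 claudins made up most of the family: CLDN1 and CLDN3, known as sealing claudins, and CLDN10, which forms ion channels between cells. CLDN1 stood at 600.2, 533 and 460.5 FPKM in the thermoneutral libraries and CLDN3 at 534, 544 and 475 FPKM, so their ranges overlapped. CLDN10 stood at 305, 287 and 457 FPKM. In the thermoneutral libraries CLDN1 held 35.5 ± 4.19%, CLDN3 34.6 ± 2.80% and CLDN10 23.4 ± 6.27% of the summed FPKM of the claudin members (mean ± SD, n = 3). The FPKM of CLDN10 and CLDN19 was higher than their counts and listed gene lengths give, so shares within the claudins are uncertain. CLDN12 and CLDN19 were far lower, at 9.06 ± 0.371 and 12.2 ± 2.15 FPKM in the same group.

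**Figure D2:**
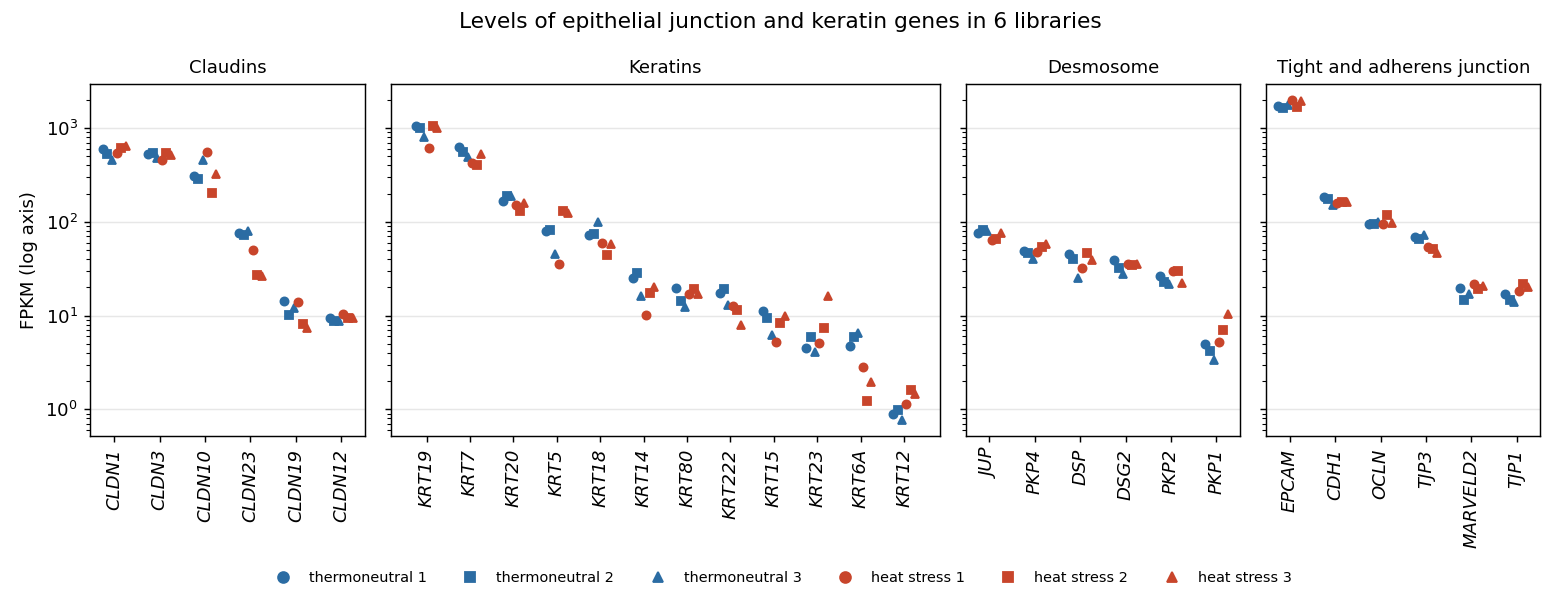
Level of the tested members described here in FPKM on a log axis, with 1 point per library, blue for thermoneutral and red for heat stress, and the marker shape giving the replicate. EPCAM, KRT19, KRT7, CLDN1, CLDN3 and CLDN10 lead their families, and KRT12 is the lowest member.

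CLDN23 was the claudin that changed. It measured 51.4, 49.2 and 54.2 CPM in the thermoneutral libraries and 35.4, 20.3 and 19.5 CPM in the heat stress libraries. All heat stress values lay below the thermoneutral values, and heat stress replicate 1 lay between the other heat stress libraries and the thermoneutral group. CLDN23 fell 2.06-fold (log2 change −1.04, SE 0.23, adjusted p = 0.0245). Its share of the summed FPKM of the claudin members went from 5.09 ± 0.209% to 2.25 ± 0.700% (mean ± SD, n = 3). The row lies on chromosome 4 from 49580673 to 49581374 on the minus strand (GRCg6a). Dropping single libraries gave log2 changes from −1.36 to −0.89, and CLDN23 passed in 1 of 6 such fits, with adjusted p up to 0.0791.

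The abundant claudins did not pass. CLDN1 measured 1498, 1344 and 1163 CPM in the thermoneutral libraries and 1430.0, 1687 and 1727 CPM in the heat stress libraries, with thermoneutral replicate 1 inside the heat stress range (log2 change 0.27, SE 0.12, adjusted p = 0.146). CLDN3 measured 878, 904 and 790.5 CPM in the thermoneutral libraries and 799, 977 and 918 CPM in the heat stress libraries (log2 change 0.07, SE 0.10, adjusted p = 0.669). Both groups of CLDN3 covered nearly the same range. CLDN10 was the claudin with the widest spread within a group, at 281, 267 and 427 CPM in the thermoneutral libraries and 537, 209 and 320.1 CPM in the heat stress libraries, where heat stress replicate 1 stood 2.57-fold above heat stress replicate 2 (log2 change 0.13, SE 0.37, adjusted p = 0.835). Its log2 change ranged over −0.28 to 0.41 depending on the library dropped. CLDN12 was higher in each heat stress library than in each thermoneutral library but did not pass (log2 change 0.20, SE 0.07, adjusted p = 0.0904), and CLDN19 overlapped between groups (log2 change −0.21, SE 0.26, adjusted p = 0.598). Of the 4 claudins under the filter, CLDN2 had 0, 1 and 1 counts in the thermoneutral libraries and 0 in each heat stress library, and CLDN16, which lies next to CLDN1 on chromosome 9 with 11954 bases between the rows, had 1 to 6.

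Beside the claudins the tight junction holds occludin, tricellulin and the zonula occludens scaffolds. TJP1 encodes ZO-1 and TJP3 encodes ZO-3, and they changed in opposite directions. TJP1 measured 91.0, 80.4 and 76.6 CPM in the thermoneutral libraries and 104, 129 and 117 CPM in the heat stress libraries. All heat stress libraries were above all thermoneutral libraries, and TJP1 rose 1.41-fold (log2 change 0.50, SE 0.10, adjusted p = 0.0185). TJP3 measured 207, 200.4 and 220.1 CPM in the thermoneutral libraries and 172, 173 and 153 CPM in the heat stress libraries. Its groups did not overlap either, and it fell 1.26-fold (log2 change −0.33, SE 0.08, adjusted p = 0.0266). Per length TJP3 was the higher of these scaffolds, with thermoneutral means of 68.4 ± 3.14 FPKM for TJP3 and 15.3 ± 1.48 FPKM for TJP1 (mean ± SD, n = 3). The heat stress libraries gave 53.7, 51.8 and 46.4 FPKM for TJP3 and 18.3, 21.7 and 20.0 FPKM for TJP1, so the levels did not overlap. After dropping each library in turn TJP1 passed in 3 of 6 fits (log2 changes 0.43 to 0.59) and TJP3 in 1 (−0.36 to −0.28). With the replicate block TJP3 had an adjusted p of 0.05004.

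**Figure D3:**
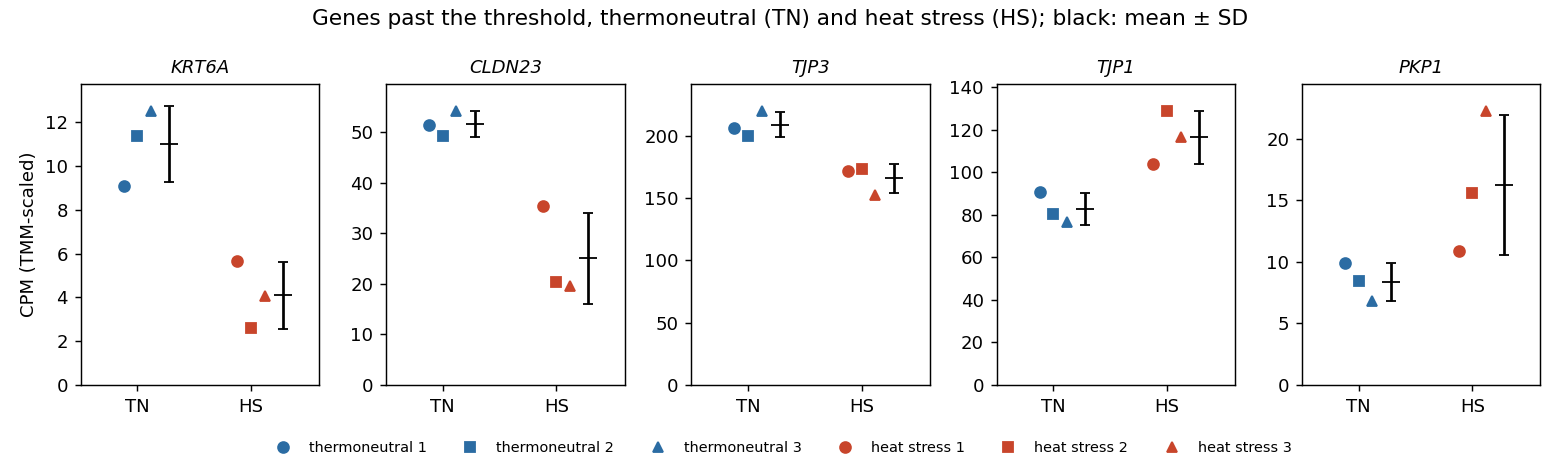
CPM of the 5 members past the threshold in each library (points), with the mean and SD of each group in black, on axes that start at 0. In each panel all 3 heat stress points lie on the same side of the 3 thermoneutral points, and for KRT6A, CLDN23, TJP1 and PKP1 heat stress replicate 1 is the heat stress point nearest to the thermoneutral group.

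OCLN, which encodes occludin, measured 179, 179.8 and 189 CPM in the thermoneutral libraries and 190.1, 249 and 201 CPM in the heat stress libraries. The heat stress values lay just above the thermoneutral values apart from replicate 2, which was further up, and OCLN did not pass (log2 change 0.23, SE 0.11, adjusted p = 0.17). MARVELD2, the tricellulin of corners where 3 cells meet, was likewise higher in each heat stress library but did not pass (log2 change 0.37, SE 0.11, adjusted p = 0.0568). DESeq2 gave MARVELD2 an adjusted p of 0.0275 and EPCAM an adjusted p of 0.0267.

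EPCAM, the epithelial cell adhesion molecule, was the member with the highest level per length, at 1717, 1642 and 1765 FPKM in the thermoneutral libraries. In CPM it measured 1995, 1927 and 2076 CPM in the thermoneutral libraries and 2459.9, 2150.1 and 2474 CPM in the heat stress libraries. The groups did not overlap, yet EPCAM did not pass (log2 change 0.24, SE 0.09, adjusted p = 0.104). Its row in the table spans chromosome 3 from 9260060 to 9446795 and covers rows of other genes on the same strand, so what its count holds is uncertain. The FPKM of EPCAM was also higher than its count and listed gene length give. CDH1, which encodes E-cadherin of the adherens junction, measured 634, 613 and 531 CPM in the thermoneutral libraries and 577, 619.6 and 614 CPM in the heat stress libraries. CDH1 groups overlapped fully (log2 change 0.03, SE 0.09, adjusted p = 0.861).

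Keratins were led by chains of simple epithelia. The type I chain KRT19 stood at 1061, 1003 and 794 FPKM in the thermoneutral libraries and the type II chain KRT7 at 626, 556 and 494 FPKM, and together with KRT20, at 168, 189 and 187 FPKM, they held most of the keratin signal. KRT19 held 49.5 ± 1.94% and KRT7 29.1 ± 1.01% of the summed FPKM of the keratin members in that group. KRT5, the basal type II chain, and its type I partner KRT14 were lower, at 68.3 ± 20.2 and 23.3 ± 6.27 FPKM. KRT222, KRT12, KRT20, KRT23, KRT15 and KRT19 lie side by side on chromosome 27 from 7320674 to 7374026 with no other row between them, and KRT14 follows at 7438735. KRT80, KRT7, KRT75, KRT6A and KRT5 lie on chromosome 33 from 5188564 to 5267112, and KRT18 further along at 5401187. Keratins resemble each other in sequence and how reads with several matches were counted is not given, so their counts are less certain than those of the other families.

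KRT6A, in mammals a type II keratin of stratified and wounded epithelia, had the largest fall of the tested members. It measured 9.10, 11.4 and 12.5 CPM in the thermoneutral libraries and 5.67, 2.58 and 4.04 CPM in the heat stress libraries. The groups did not overlap and KRT6A fell 2.69-fold (log2 change −1.43, SE 0.29, adjusted p = 0.0174), on counts of 72 to 322 per library. KRT6A passed in 3 of 6 fits that each drop a library, with log2 changes from −1.72 to −1.17. Its neighbour KRT5, 5786 bases away, measured 191, 198 and 110.2 CPM in the thermoneutral libraries and 91.4, 352 and 329 CPM in the heat stress libraries. Heat stress replicate 1 had the lowest KRT5 value of all libraries and heat stress replicates 2 and 3 the highest, a 3.86-fold range within the group, and KRT5 did not pass (log2 change 0.63, SE 0.53, adjusted p = 0.44). Without heat stress replicate 1 the log2 change of KRT5 was 1.05 (edgeR adjusted p = 0.0378). That fit called 23.6% of all genes, and KRT12, KRT23 and PKP4 also gained calls in it. It gave the only pass of KRT5 in 6 fits that each drop a library, with log2 changes from 0.35 to 1.05 and adjusted p up to 0.727. Whether the changes of KRT5 and KRT6A differ was not tested.

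The abundant keratins overlapped between temperatures. KRT19 measured 1755, 1675 and 1329 CPM in the thermoneutral libraries and 1071, 1898 and 1784 CPM in the heat stress libraries (log2 change −0.00, SE 0.22, adjusted p = 0.997). KRT7 measured 1595, 1431 and 1273 CPM in the thermoneutral libraries and 1127, 1124 and 1459 CPM in the heat stress libraries, with heat stress replicate 3 inside the thermoneutral range (log2 change −0.21, SE 0.13, adjusted p = 0.29). KRT20 overlapped through heat stress replicate 3 and did not pass (log2 change −0.21, SE 0.09, adjusted p = 0.147), at 319, 362 and 359.6 CPM in the thermoneutral libraries and 303, 272 and 325 CPM in the heat stress libraries. KRT18, the further type I chain of simple epithelia, was lower in each heat stress library, at 89.1, 91.2 and 125 against 77.2, 59.7 and 76.9 CPM, and missed the threshold (log2 change −0.51, SE 0.16, adjusted p = 0.0623), while DESeq2 called it (adjusted p = 0.0147). KRT14 and KRT15, both basal type I chains, gave log2 changes of −0.45 and −0.08 and KRT222 and KRT80 of −0.53 and 0.32, and none of these passed. KRT23 was higher in heat stress replicate 3 than in any other library (log2 change 1.09, SE 0.43, adjusted p = 0.125), and KRT12, on 31 to 77 counts per library, was higher in each heat stress library but did not pass (log2 change 0.78, SE 0.26, adjusted p = 0.0718). DESeq2 called KRT23 as well (adjusted p = 0.0215).

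Desmosomal genes were present at moderate levels, with plakoglobin (JUP), which binds the cadherin tails, highest per length at 79.2 ± 2.97 FPKM in the thermoneutral libraries and PKP1 lowest at 4.17 ± 0.801 FPKM. PKP1, a plakophilin that in mammals is typical of stratified epithelia, measured 9.91, 8.42 and 6.80 CPM in the thermoneutral libraries and 10.9, 15.6 and 22.3 CPM in the heat stress libraries. Its groups did not overlap, although heat stress replicate 1 stood just above thermoneutral replicate 1, and PKP1 rose 1.94-fold (log2 change 0.95, SE 0.27, adjusted p = 0.0475). The call was marginal, since the adjusted p was 0.0538 with upper-quartile scaling, 0.0658 with limma-voom and 0.101 with the replicate block, and PKP1 passed in 1 of 6 fits that drop a library. PKP4, a plakophilin relative of both desmosomes and adherens junctions, measured 184, 174 and 154 CPM in the thermoneutral libraries and 188, 223 and 237 CPM in the heat stress libraries and did not pass (log2 change 0.34, SE 0.11, adjusted p = 0.0633), while DESeq2 called it (adjusted p = 0.0299). PKP2 overlapped between groups (log2 change 0.32, SE 0.14, adjusted p = 0.138).

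DSP, JUP and DSG2 did not pass. DSP, desmoplakin, which ties the plaque to keratin filaments, measured 371, 337 and 212 CPM in the thermoneutral libraries and 279, 424 and 350.3 CPM in the heat stress libraries, with its lowest value in thermoneutral replicate 3 (log2 change 0.20, SE 0.24, adjusted p = 0.593). JUP measured 232, 252 and 243 CPM in the thermoneutral libraries and 207, 221 and 252 CPM in the heat stress libraries (log2 change −0.10, SE 0.09, adjusted p = 0.467). DSG2, the desmoglein found in simple as well as stratified epithelia, measured 138, 114 and 98.9 CPM in the thermoneutral libraries and 129.7, 133 and 136 CPM in the heat stress libraries. The 3 heat stress values of DSG2 lay within the thermoneutral range (log2 change 0.18, SE 0.12, adjusted p = 0.289).

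Many members varied within each group in a shared order of libraries. In 16 of the 31 tested members thermoneutral replicate 3 was the lowest of its group and heat stress replicate 1 the lowest of its own, which is 51.6% of members against 16.0% of all genes tested. They included CDH1, CLDN1, CLDN3, DSG2, DSP, KRT5, KRT12, KRT14, KRT15, KRT19, KRT23, KRT80, PKP1, PKP4 and TJP1. In 4 members, CLDN10, CLDN23, KRT6A and KRT18, both libraries were instead the highest of their groups, or 12.9% of members against 15.9% of all genes. This order was noticed after the values were seen and is a description with no test.

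Basal keratins varied widely in this order. KRT14 measured 38.4, 43.8 and 25.2 CPM in the thermoneutral and 16.2, 29.2 and 33.3 CPM in the heat stress libraries, and KRT15 18.3, 15.8 and 10.3 and 9.20, 15.1 and 17.8 CPM. TP63, the transcription factor of basal epithelial cells, followed the same order with 48.0, 48.5 and 24.5 and 27.8, 45.8 and 42.2 CPM and did not pass (log2 change −0.06, SE 0.30, adjusted p = 0.904). CLDN10 was highest where these genes were lowest. KRT18 was too, but in heat stress replicate 1 only barely, at 77.2 CPM against 76.9 CPM in heat stress replicate 3. Across all tested genes the deviations of thermoneutral replicate 3 and heat stress replicate 1 from their group means had a correlation of 0.21, a value over genes that are not independent. This pair was picked after the order was noticed. Other pairs ran from −0.27, for thermoneutral replicate 3 with heat stress replicate 2, to 0.25, for replicate 2 of both groups. The summed level of the 10 smooth muscle markers was 8354 CPM in thermoneutral replicate 3 and 5289 CPM in heat stress replicate 1, so that list did not share the order. Of 9 marker lists the macrophage and dendritic cell list had its lowest sums in both libraries, at 936 and 634 CPM, and the other 8 did not. Among those 8 was the list of epithelial markers that are no members. Its sums were 1069, 1089 and 1075 CPM in the thermoneutral and 1121, 1136 and 1216 CPM in the heat stress libraries. Its lowest sums were thus in replicate 1 of both groups. Lowest sums in both libraries were also found in 5 of 9 lists of partner genes, those of tight junction partners, polarity, desmosome partners, hemidesmosomes and epithelial regulators. A sum follows its most abundant genes. PPL made up 417 of 594 and 496 of 643 CPM of the desmosome partner sums in these libraries, while PNN of that list was highest of its group in both. The tight junction sums differed little, at 966, 962 and 961 CPM in the thermoneutral and 982, 984 and 1041 CPM in the heat stress libraries. The part of tissue makeup in the order was not tested.

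**Figure D4:**
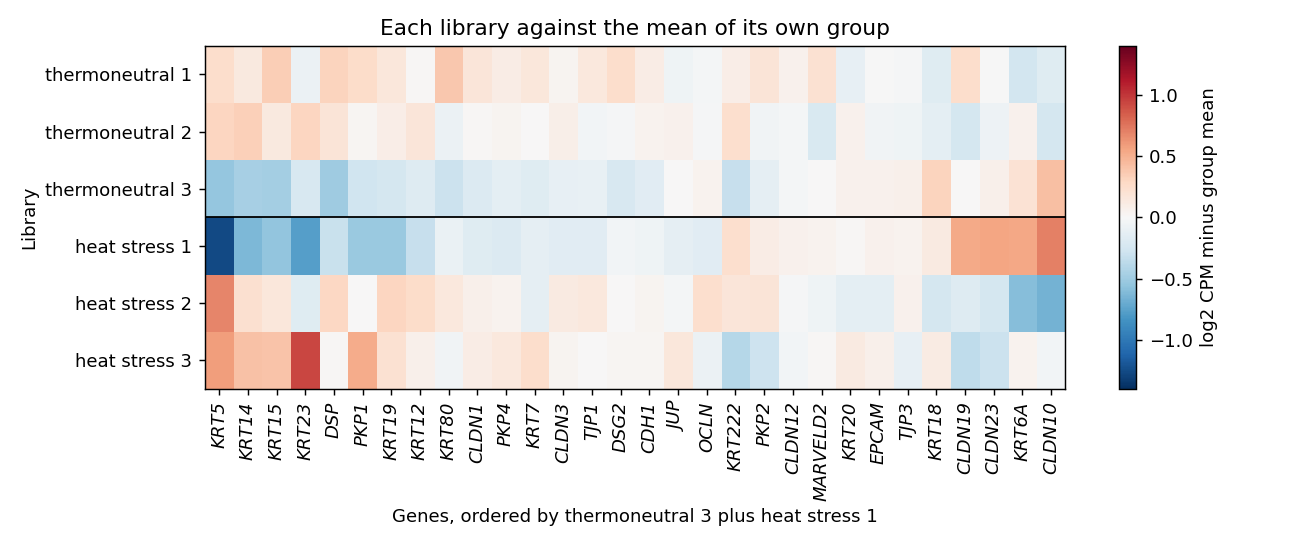
Log2 CPM of the tested members described here in each library minus the mean of its own group, blue for below and red for above, with genes ordered by the sum of thermoneutral replicate 3 and heat stress replicate 1. KRT5, KRT14 and KRT15 stand at the left with both libraries below their means, and CLDN10 and KRT6A stand at the right with both above.

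Genes that work with the members were counted from lists chosen for their function. Of 91 tested partner genes 13 rose and 5 fell, together 19.8% as among all genes, and their median log2 change was 0.09. With thermoneutral replicate 1, 2 or 3 dropped, 14, 2 and 11 partner genes passed, beside 11.1%, 2.84% and 7.87% of all genes. With heat stress replicate 1, 2 or 3 dropped, 19, 14 and 0 passed, beside 23.6%, 9.37% and 2.00% of all genes. The last of these fits had 23 partner genes at an unadjusted p under 0.05 in edgeR.

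Polarity genes, which place the tight junction at the top of the cell side, had 5 of 14 members higher and 2 lower, with 7 that did not pass and a median log2 change of 0.26. Over all genes 10.2% were called higher and 9.52% lower. PRKCI, an atypical protein kinase C of the apical complex, measured 71.3, 74.8 and 66.6 CPM in the thermoneutral libraries and 93.4, 95.3 and 98.1 CPM in the heat stress libraries and rose (log2 change 0.43, SE 0.07, adjusted p = 0.0112). The scaffold DLG1 measured 100.4, 105 and 91.0 CPM in the thermoneutral libraries and 124, 135 and 134 CPM in the heat stress libraries and rose (log2 change 0.40, SE 0.08, adjusted p = 0.0157). PARD6A, an adaptor of the same apical complex, fell from a low level of 2.75, 3.47 and 2.84 CPM to 0.964, 0.430 and 0.956 CPM (log2 change −1.95, SE 0.34, adjusted p = 0.0131), while its paralogue PARD6B, named after its values were seen, rose from 31.3, 27.2 and 26.8 to 37.1, 49.4 and 48.8 CPM (log2 change 0.67, SE 0.13, adjusted p = 0.0159). The other genes of the list that passed, also named after their values were seen, were PRKCZ (0.59), LIN7C (0.32) and, lower, the basolateral protein LLGL2 (−0.43), given as log2 changes. Without heat stress replicate 3 no gene of the list passed, in a fit that called 2.00% of all genes. In the 6 fits that each drop a library PRKCI passed in 5, and DLG1 and PARD6A in 4. PARD6B, LIN7C and LLGL2 passed in 3 and PRKCZ in 2.

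**Figure D5:**
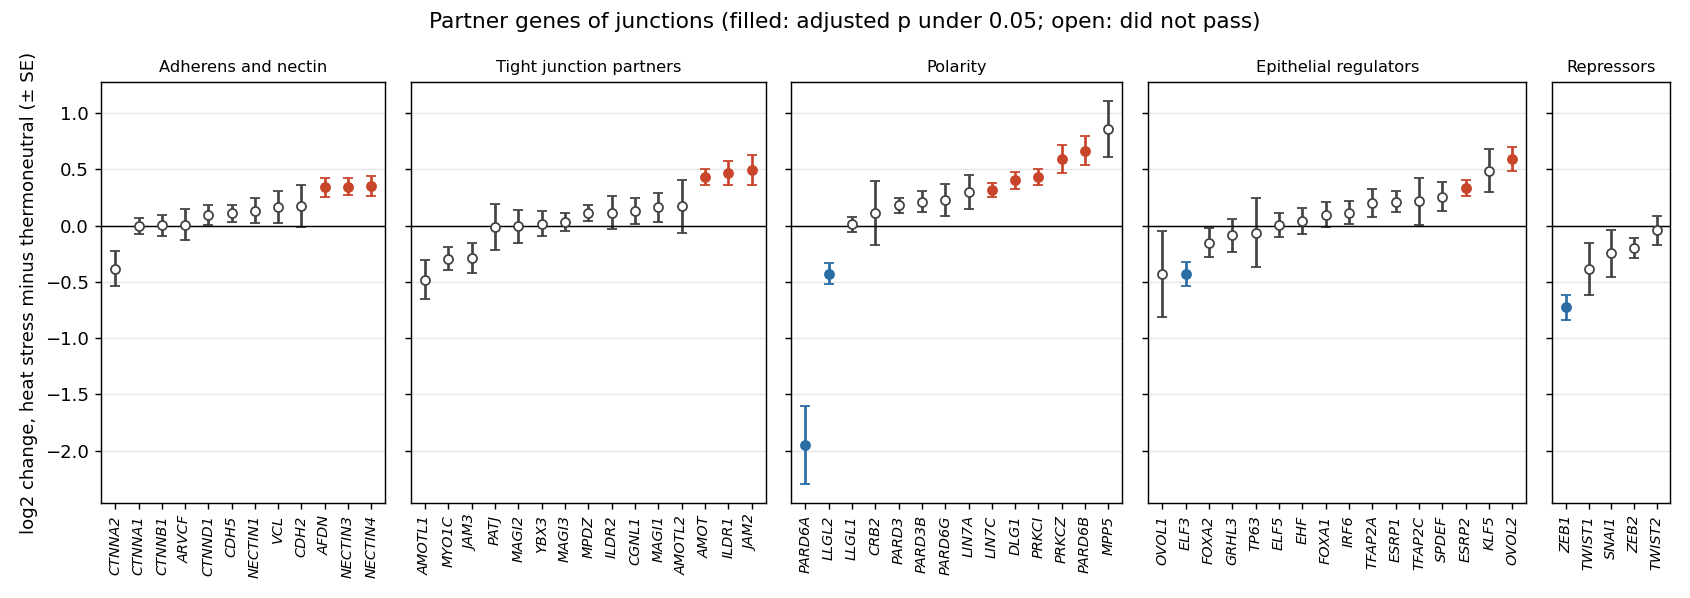
Log2 change (± SE, y axis) of the tested partner genes in 5 lists, filled where the adjusted p was under 0.05. In the polarity panel 5 filled points lie above the line and PARD6A and LLGL2 below it, and ZEB1 is the filled point among the repressors.

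Among adherens junction partners 3 of 12 rose and 9 did not pass, beside 10.2% of all genes called higher. The nectins NECTIN3 and NECTIN4, adhesion proteins that join cells beside E-cadherin, and afadin (AFDN), which links nectins to actin, had log2 changes of 0.35 (SE 0.08), 0.35 (SE 0.09) and 0.34 (SE 0.08), with edgeR adjusted p of 0.0217, 0.0304 and 0.0273. AFDN measured 138, 132 and 117 CPM in the thermoneutral libraries and 164, 158 and 168 CPM in the heat stress libraries. When single libraries were dropped, NECTIN3, NECTIN4 and AFDN passed in 3, 1 and 2 of 6 edgeR fits. The catenins CTNNA1, CTNNB1 and CTNND1, which join E-cadherin to actin, did not pass, at log2 changes of −0.01, 0.00 and 0.09.

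Of 15 tight junction partners 3 rose and 12 did not pass, beside 10.2% of all genes called higher. Angiomotin (AMOT) measured 78.3, 68.5 and 74.8 CPM in the thermoneutral libraries and 97.6, 99.7 and 102 CPM in the heat stress libraries (log2 change 0.44, SE 0.07, adjusted p = 0.0117). ILDR1, an angulin that recruits tricellulin to corners between cells, measured 27.9, 25.2 and 23.8 CPM in the thermoneutral libraries and 33.3, 33.0 and 40.1 CPM in the heat stress libraries (log2 change 0.47, SE 0.11, adjusted p = 0.0264). JAM2, a junctional adhesion molecule whose row overlaps that of ATP5PF and is therefore uncertain, measured 30.5, 32.0 and 33.3 CPM in the thermoneutral libraries and 54.8, 40.1 and 39.9 CPM in the heat stress libraries (log2 change 0.49, SE 0.13, adjusted p = 0.04), and lost its call with upper-quartile scaling, limma-voom and the replicate block. In 6 fits that each drop a library AMOT passed in 4, ILDR1 in 3 and JAM2 in 2.

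Regulators of epithelial genes changed in both directions, with 2 of 16 higher, 1 lower and 13 that did not pass. These shares are near those of all genes, at 10.2% higher and 9.52% lower. OVOL2, a zinc finger factor that keeps cells epithelial in mammals, measured 19.0, 22.4 and 22.2 CPM in the thermoneutral libraries and 28.9, 33.9 and 32.9 CPM in the heat stress libraries and rose (log2 change 0.59, SE 0.11, adjusted p = 0.0134). ESRP2, an epithelial splicing regulator, measured 246, 246 and 261 CPM in the thermoneutral libraries and 326, 298 and 323 CPM in the heat stress libraries and rose (log2 change 0.33, SE 0.07, adjusted p = 0.0208). ELF3, an ETS factor of epithelia, fell from 587, 653 and 555 to 391, 495 and 448 CPM (log2 change −0.43, SE 0.11, adjusted p = 0.0322). With single libraries dropped OVOL2 passed in 4 of 6 edgeR fits, ESRP2 in 3 and ELF3 in 1. Of 5 tested repressors of epithelial junction genes, ZEB1 fell and 4 did not pass. ZEB1, a repressor of CDH1 that is known from connective tissue cells, measured 49.5, 65.9 and 63.4 CPM in the thermoneutral libraries and 36.0, 35.9 and 36.1 CPM in the heat stress libraries, with heat stress values closer to each other than those of the thermoneutral group (log2 change −0.73, SE 0.11, adjusted p = 0.0107). ZEB1 passed in 5 of 6 fits that each drop a library.

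Markers of connective tissue and muscle are given beside ZEB1. Of all genes 9.52% were called lower and 10.2% higher. Fibroblast markers had 4 of 10 lower and 6 that did not pass, with summed levels of 3779.9 to 5661 CPM in the thermoneutral and 4038 to 4296 CPM in the heat stress libraries. Smooth muscle markers had 1 of 10 lower and 9 that did not pass, with sums of 5547 to 8916 and 5289 to 7048 CPM. No marker of either list was at 0, and their part in the fall of ZEB1 was not tested. Epithelial markers that are no members had 1 of 8 higher, TMPRSS2, 1 lower, PROM1, and 6 that did not pass, and their sums were 1069 to 1089 CPM in the thermoneutral and 1121 to 1216 CPM in the heat stress libraries, so that those of heat stress lay above.

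No gene passed in edgeR among 7 hemidesmosome genes, 4 desmosome partners and 10 further intermediate filament and lamin genes. Of these 2, 0 and 1 had an unadjusted p under 0.05, and DESeq2 called 1, 0 and 1 and limma-voom none. Over all genes edgeR called 19.8%, DESeq2 26.1% and limma-voom 19.2%, and 36.6% had an unadjusted p under 0.05 in edgeR. Lists this short cannot show that their genes respond less than others. The smallest p values of the 3 lists belonged to CD151, a tetraspanin of hemidesmosomes (log2 change 0.22, SE 0.08, adjusted p = 0.0938), TMEM47 (log2 change −0.42, SE 0.21, adjusted p = 0.195) and the filament protein SYNM (log2 change −0.54, SE 0.21, adjusted p = 0.117).

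Markers of other cells in the tissue were counted in the same fit, which called 9.52% of all genes lower. Macrophage and dendritic cell markers had 5 of 9 lower, with sums of 936 to 1105 CPM in the thermoneutral and 634 to 904 CPM in the heat stress libraries, ciliated cell markers 2 of 8 lower (1451 to 1775 and 1408 to 1624 CPM) and endothelial markers 1 of 9 lower (701 to 742 and 669.7 to 755 CPM). No marker passed in edgeR among 8 of T, B and plasma cells (1141 to 2041 and 1225 to 1459 CPM), 5 of red blood cells (218 to 270.2 and 194 to 224 CPM) and 7 of nerve and glia (46.3 to 52.9 and 41.5 to 52.1 CPM). Of these 2, 2 and 1 had an unadjusted p under 0.05, and DESeq2 called 1, 1 and 0 and limma-voom 1, 0 and 0. The shares over all genes were 36.6% for the unadjusted p, 26.1% for DESeq2 and 19.2% for limma-voom. The part of these cells in the values of the members was not tested.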

How the data were processed

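Raw read counts per gene were deposited by the authors as whole numbers. Per the submitters' processing notes fastp, HISAT2 2.0.5 and featureCounts 1.5.0-p3 served, and the build is GRCg6a. The sources used here give neither annotation release nor strand setting. FPKM values were also deposited by the authors, and in the median over well-counted genes the library totals they imply exceed the count sums by 0.0057% to 0.085%. Single genes depart from this median. For some members, among them EPCAM, CLDN10, CLDN19, CDH1, PKP4, TJP1 and TJP3, FPKM is higher than count, listed gene length and library total give. The reason is not known. Per the labels' protocols the libraries were made from poly-A RNA of 4 pooled hens each.

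The contrast of heat stress against thermoneutral was fitted in edgeR 4.0.16 under R 4.3.3 (TMM, filterByExpr by group, robust quasi-likelihood test, Benjamini-Hochberg adjustment over 15655 genes, threshold 0.05). The SE is the absolute log2 change over the square root of F. Correlations of deviations from group means used log2 CPM with a prior count of 2, and the deviations drawn for the members used log2 CPM without one. List genes without a symbol in the file were matched by NCBI gene number to the RefSeq table of GRCg7b, for names only. DESeq2 1.42.0 and limma-voom (limma 3.58.1) were alternatives. Only the main edgeR fit was tried on simulated counts, and the other fits and counts were not.

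Members past the threshold and the 4 highest members of each family by FPKM are given in every library, with up to 3 genes per partner list. Members and lists were chosen with earlier results of these data known. No sequences are shown. Some genes counted in the totals are not reported here.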

Additional observations from a re-analysis of the deposited data

How the results depend on the processing

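Against 2 members higher and 3 lower, upper-quartile scaling and limma-voom each gave 1 higher and DESeq2 gave 6 higher. Leaving out each library in turn gave 0 to 6 members higher and 0 to 3 lower, and 0 to 15 partner genes higher and 0 to 5 lower, against 13 and 5. Those fits called 2.00% to 23.6% of all genes. With a replicate block 2 members were higher and 4 lower, and 12 partner genes were higher and 6 lower. Over all genes 17.4% were called with the replicate block, against 19.8% without it. Under that block PKP1 (adjusted p = 0.101) and TJP3 (adjusted p = 0.05004) lost their calls, and MARVELD2, KRT18 and KRT222 gained them. The labels state no pairing by replicate number. Deviations of libraries 1, 2 and 3 from their group means correlated at −0.05, 0.25 and 0.07 between groups. Not every library correlated best with its own number. Such correlations cannot decide whether samples were paired, since deviations from a mean of 3 libraries depend on each other. Relative log expression, no filter and a stricter filter (a mean of 5 CPM, and 1 CPM or more throughout a group) called the same 5 members. No called member changed direction in any fit. KRT12 was left out by the stricter filter. The 5 members with at most 6 counts per library were under the filter, and none of them passed without it. The cause of the other differences was not tested.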

Other observations

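Rows of the same families that the symbol rule leaves out were read by the description in the table, a choice made after the table was seen. Desmocollin 1 (DSC1), a desmosomal cadherin, measured 51.7, 46.3 and 36.3 CPM in the thermoneutral libraries and 61.9, 79.1 and 66.8 CPM in the heat stress libraries. All heat stress values lay above all thermoneutral values, and DSC1 rose 1.55-fold (log2 change 0.63, SE 0.15, adjusted p = 0.0269, edgeR). Its lowest values were in thermoneutral replicate 3 and heat stress replicate 1, the order described for many members. For DSC1 other tools and fits that drop a library are not given. Claudin 5, known from blood vessels, measured 33.7, 34.1 and 34.0 CPM in the thermoneutral libraries and 35.8, 38.1 and 38.0 CPM in the heat stress libraries and did not pass (log2 change 0.14, SE 0.07, adjusted p = 0.215, edgeR). Claudins 9 and 11 and 2 keratin-like rows stayed under 6 CPM and did not pass, and claudin 15 and a keratin 42-like row were under the filter.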
